A study of Xenopus laevis with 39 samples.

Results

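The 65 genes described here belong by name to families of enzymes that modify odorants and other foreign or signalling chemicals. They were measured in the olfactory system of the clawed frog Xenopus laevis. They are the genes of the deposited count table whose symbols begin with the names of the cytochrome P450 families CYP1, CYP2 and CYP3, the flavin-containing monooxygenases (FMO), the aldehyde dehydrogenases ALDH1A and ALDH3, the carboxylesterases (CES), the epoxide hydrolases (EPHX), the quinone reductase NQO1, the glutathione transferases (GST), the glucuronosyltransferases of the UGT1 and UGT2 families, the related UGT8 enzyme and the sulfotransferases (SULT). They were chosen by name from 37223 genes, at a time when earlier results of these data were known. They fall into 12 classes, with 15 genes of the CYP2 family, 11 sulfotransferases, 8 glutathione transferases and 7 genes of the CYP1 family as the largest. No CYP3 gene was found under that rule. X. laevis is allotetraploid, so many genes exist as homeologs on the long (.L) and short (.S) chromosomes of a pair. Here 44 of the 65 symbols ended in .L, 20 in .S and 1 in neither, which gave 16 homeolog pairs. How the reads of near-identical copies were divided is not given in the sources used here, so values of single homeologs are less certain than those of a pair.

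Biotransformation is usually described in a pair of phases. In the first, monooxygenases such as the cytochromes P450 and FMOs, or dehydrogenases and hydrolases, introduce or expose a reactive group. In the second, transferases attach glutathione, glucuronic acid or sulfate, which makes the product easier to export. In mammals the sustentacular (supporting) cells and Bowman's glands of the olfactory epithelium are rich in such enzymes, which are thought to clear odorants and to protect the neurons. CYP1 genes are known targets of the aryl hydrocarbon receptor, several GST genes and nqo1 are known targets of the transcription factor NRF2, and ALDH1A enzymes make retinoic acid.

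RNA-seq of total RNA was available for 13 groups of 3 libraries each. The noses were whole noses of stage 66 adults after metamorphosis, whole noses of larvae before metamorphosis with no treatment (the control noses), and dissected larval epithelia, the principal cavity, which holds the main olfactory epithelium, and the vomeronasal organ (VNO) of the accessory system. The other larval groups were whole noses exposed to amino acids for 5 h at doses labelled 200 and 1000, whose unit is incomplete in the labels, whole noses and whole olfactory bulbs 2 days, 1 week and 7 weeks after transection, and whole bulbs of untreated larvae (the control bulbs). The labels give no strain, name neither the amino acids nor the structure cut, and do not say whether libraries came from separate animals, so each p-value reflects the spread among the libraries of a group and may miss that among animals. One group of untreated larvae served every time and dose, so the time since transection and the age of the animals cannot be told apart, and the amino acid groups had no vehicle-exposed group of their own among the 13.

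Libraries held 25.8 to 180.5 megareads counted per gene (median 69.7), and the lowest rank correlation between libraries of a group was 0.958. Markers bore out the labelled tissues: summed bulb neuron markers had 66.5 to 82.3 counts per megaread (CPM) in control noses and 1158 to 1220 CPM in control bulbs, and receptor neuron markers had 940 to 1142 CPM in control noses and 277 to 299 CPM in control bulbs. The tissue label of the VNO libraries reads olfactory lobe, but their summed bulb neuron markers, at 74.5 to 118 CPM, lay near those of the principal cavity at 84.2 to 109 CPM. CPM are scaled across libraries (trimmed mean of M values) and compared within a gene. TPM are the authors' deposited values, scaled by gene length and library total, and are used to compare genes. The 3 values of a group follow the order of the deposited table's libraries, and log2 fold changes are given ± SE. A gene is called higher or lower where the quasi-likelihood F test of edgeR gave a Benjamini-Hochberg adjusted p below 0.05 over all genes. Genes named for the size of their change within a contrast of groups were also required to have no overlap of libraries. For such genes the lack of overlap stated below was a condition of naming and is no added evidence.

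Control noses expressed most of these genes. In TPM means, 51 of the 65 reached 1 TPM in control noses and 39 did so in control bulbs, while 9 reached it in no group. The 65 genes together made up 911 ± 77.3 TPM in control noses and 398 ± 15.6 TPM in control bulbs (SD, n = 3 each). The gene of highest level in control noses was gstp1.L, a pi-class glutathione transferase, at 144 ± 22.4 TPM, followed by gsta1.S, an alpha-class transferase, at 59.7 TPM. Next came cyp2a6.L at 53.1 TPM and the microsomal epoxide hydrolase ephx1.L at 53.1 TPM, then the quinone reductase nqo1.L at 52.6 TPM, the phenol sulfotransferase sult1a1 at 48.7 TPM, gsta1.L at 43.1 TPM and the retinaldehyde dehydrogenase aldh1a1.S at 42.7 TPM. Behind these lay gstk1.L, a kappa-class transferase, at 33.2 TPM, sult4a1.L at 26.5 TPM, fmo2.L at 25.9 TPM and aldh1a1.L at 25.8 TPM. By class, control noses held 323 ± 19.8 TPM of GST, 173 ± 41.9 TPM of CYP2, 126 TPM of SULT, 80.5 ± 11.7 TPM of ALDH1A, 30.6 ± 3.33 TPM of FMO and 22.9 ± 5.11 TPM of CYP1 transcripts. In control bulbs the order differed, with sult4a1.S at 59.4 TPM and sult4a1.L at 58.6 TPM first, followed by cyp1c1.L at 39.9 TPM, the fatty aldehyde dehydrogenase aldh3a2.S at 32.9 TPM and sult1a1 at 26.5 TPM.

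**Figure D1:**
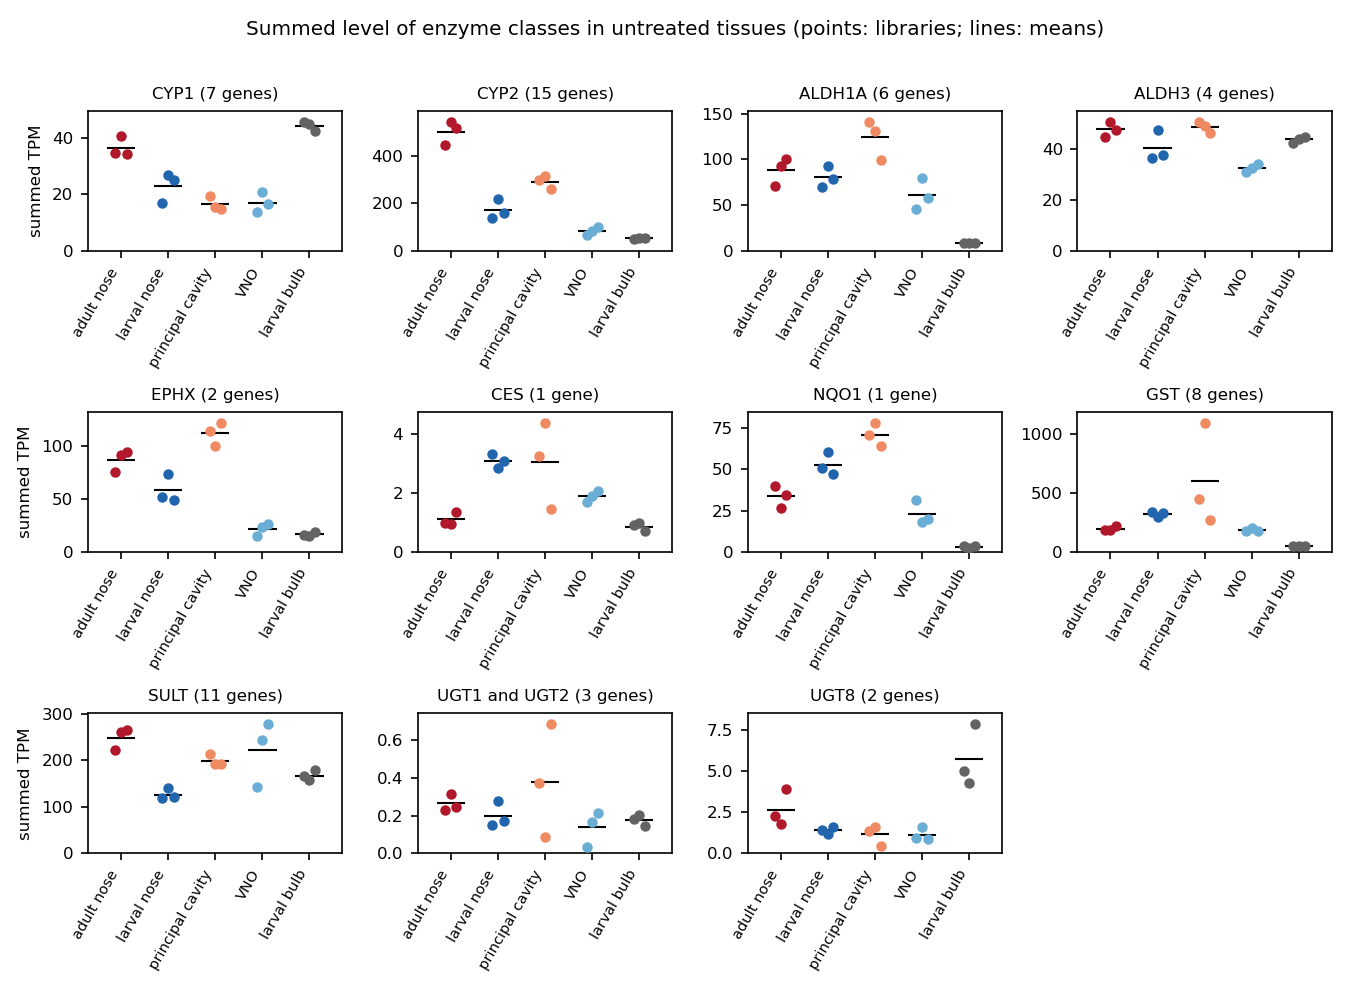
Summed TPM of enzyme classes, FMO left out (vertical axes, linear), in adult noses, control larval noses, principal cavity, VNO and control bulbs, with 1 point a library and lines at the means. CYP2 transcripts sum to 502 ± 50.3 TPM in adult noses and 173 ± 41.9 TPM in control noses, and CYP1, SULT, ALDH3 and UGT8 transcripts have lower means in control noses than in control bulbs.

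Against the bulb, the control nose was the richer tissue for most classes. Of 63 members tested, 44 were higher and 12 lower in control noses than in control bulbs, or 88.9% called, against 74.8% of all genes (39.7% higher and 35.1% lower), so that most genes differed. Their median log2 fold change was 1.69, against 0.10 over all genes, a shift of the whole table that was not subtracted. All 6 ALDH1A genes, 6 of 7 CYP1, 10 of 14 CYP2, 7 of 8 GST and 7 of 11 SULT genes were higher in the nose. In bulk tissue, fewer cells of a type and less RNA per cell cannot be told apart.

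Several of the monooxygenases of the nose were close to undetected in the bulb. fmo2.L had 53.8, 58.7 and 62.5 CPM in control noses and 0.0746, 0.0994 and 0.0255 CPM in control bulbs (log2 fold change 9.74 ± 0.42, adjusted p = 1.54e-14). cyp2a6.L, whose mammalian relatives are abundant in nasal mucosa, had 60.7, 79.0 and 67 CPM in control noses and 0.149, 0.126 and 0.0891 CPM in control bulbs (9.19 ± 0.48, adjusted p = 6.62e-13). No library of one tissue came near the range of the other for either gene. Another CYP2A gene, cyp2a13.L, was not confined to the nose, averaging 16.7 CPM in control noses and 20.8 CPM in control bulbs. aldh1a1.S, which oxidises retinaldehyde, had 133, 154 and 150 CPM in control noses and 0.584, 0.587 and 0.535 CPM in control bulbs (8.07 ± 0.62, adjusted p = 6.50e-10). The estrogen sulfotransferase gene sult1e1.L had 8.16, 10.7 and 9.93 CPM in control noses and 0.0249, 0.0542 and 0.0255 CPM in control bulbs (8.03 ± 0.39, adjusted p = 2.83e-14). The groups were again fully apart, as they were for gstp1.L, which had 218, 136 and 199 CPM in control noses and 5.07, 5.72 and 4.85 CPM in control bulbs (5.22 ± 0.37).

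A smaller set was lower in the nose than in the bulb. Among them was sult4a1, a member of the sulfotransferase family known mainly from the brain of mammals. Its .S copy had 10.005, 11.7 and 10.5 CPM in control noses and 29.5, 28.4 and 30.7 CPM in control bulbs (-1.39 ± 0.16, adjusted p = 6.88e-08). Its .L copy had 34.0, 51.5 and 42.2 CPM in control noses and 75.4, 68.2 and 80.3 CPM in control bulbs (-0.74 ± 0.15). Both copies were lower in every nose library than in any bulb library. The galactolipid-forming enzyme of myelin, ugt8, was lower in the nose for both copies, with 3.50, 2.34 and 3.71 CPM of ugt8.L in control noses and 9.82, 8.60 and 14.7 CPM in control bulbs (-1.72 ± 0.48, adjusted p = 0.00325). Summed myelin markers moved the same way, at 304 to 415 CPM in control noses and 908 to 1525 CPM in control bulbs, and their part in the result was not tested. Among the CYP1 genes cyp1c1.L alone was lower in the nose, with 2.21, 2.85 and 3.39 CPM in control noses and 14.2, 14.0 and 12.1 CPM in control bulbs (-2.18 ± 0.20, adjusted p = 1.76e-09).

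Within the larval nose, the principal cavity held more of the CYP2, FMO and most ALDH1A transcripts than the VNO. Of 57 members that passed the filter, the cavity had 20 higher and 8 lower, or 49.1% called, against 15.2% of all genes (8.66% higher and 6.53% lower). Their median log2 fold change was 0.84, against 0.00 over all genes. Left out one at a time, the libraries gave 16 to 27 called members, with the lowest count without principal cavity library 1. CYP2 genes contributed 7 higher and 2 lower of 13, ALDH1A genes 4 higher and 2 lower of 6, while CYP1 genes contributed 2 lower and none higher. In TPM, the CYP2 class stood at 291 ± 29.0 in the principal cavity and 83.9 ± 15.7 in the VNO, and the FMO class at 51.0 ± 11.0 in the principal cavity and 15.4 ± 1.68 in the VNO (SD, n = 3 each).

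The CYP2 genes with the clearest split were cyp2f2.L and the CYP2A genes. cyp2f2.L, a P450 whose mouse counterpart is known from airway epithelium, had 22.5, 17.7 and 20.2 CPM in the principal cavity and 0.219, 1.18 and 1.17 CPM in the VNO (4.46 ± 0.53, adjusted p = 0.00159). cyp2a6.L had 163, 188 and 135 CPM in the principal cavity and 18.9, 22.7 and 31.8 CPM in the VNO (2.67 ± 0.24, adjusted p = 3.80e-04). cyp2a13.L had 35.5, 32.7 and 29.5 CPM in the principal cavity and 4.35, 3.95 and 6.06 CPM in the VNO (2.70 ± 0.20, adjusted p = 2.04e-04). The epithelia did not overlap for any of these 3 genes. Conjugation and hydrolysis followed for gsta1.L, with 365, 371 and 290 CPM in the principal cavity and 24.4, 49.7 and 63.1 CPM in the VNO (2.85 ± 0.33, adjusted p = 0.00130), and for ephx1.L, with 280, 229 and 329 CPM in the principal cavity and 38.8, 49.9 and 66.9 CPM in the VNO (2.37 ± 0.23). The other alpha-class copy, gsta1.S, had 129, 161 and 147 CPM in the principal cavity and 158, 126 and 109 CPM in the VNO, and the ranges overlapped.

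The retinaldehyde dehydrogenases divided between the epithelia by paralog. aldh1a3.S had 3.96, 3.85 and 5.97 CPM in the principal cavity and 0.267, 0.343 and 0.131 CPM in the VNO (4.13 ± 0.45, adjusted p = 0.00102), and aldh1a3-like.L had 22.0, 18.4 and 22.0 CPM in the principal cavity and 2.92, 2.37 and 1.18 CPM in the VNO (3.19 ± 0.35). aldh1a2 took the other direction, with 2.11, 4.37 and 2.35 CPM of aldh1a2.S in the principal cavity and 29.5, 28.4 and 24.4 CPM in the VNO (-3.28 ± 0.33, adjusted p = 6.50e-04). aldh1a2.L had 10.6, 15.9 and 9.64 CPM in the principal cavity and 45.1, 56.3 and 44.4 CPM in the VNO (-2.07 ± 0.24). Both copies of aldh1a2 were thus lower in every cavity library, and both copies of aldh1a1 were called higher there, aldh1a1.S by only 0.84, a call that ended without any of 5 of the 6 libraries (0.72 to 0.96). cyp1b1, which in mammals metabolises estrogens and retinoids, was lower in the cavity for both copies, with 6.37, 5.12 and 7.66 CPM of cyp1b1.L in the principal cavity and 25.5, 30.3 and 24.6 CPM in the VNO (-2.14 ± 0.20, adjusted p = 4.50e-04). Sustentacular and gland markers, summed, had 1921 to 2607 CPM in the principal cavity and 2405 to 3494 CPM in the VNO, with 2 of 15 higher and 2 lower. Ciliated cell markers had 770 to 909 CPM in the principal cavity and 242 to 464 CPM in the VNO. The part of both lists in these differences was not tested.

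gstp1.L shows a limit of this pair of groups. Its 3 libraries had 214, 902 and 81.3 CPM in the principal cavity and 80.5, 50.6 and 46.9 CPM in the VNO, and the spread within the cavity was wider than the gap to the VNO. The class sum of GST, 605 ± 435 TPM in the principal cavity and 187 ± 15.8 TPM in the VNO, was raised by principal cavity library 2, without which the cavity averaged 359 TPM. Each cavity library, at 273 to 1097 TPM, still lay above each VNO library, at 178 to 206 TPM.

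Adult noses differed from control larval noses in both directions. Of 61 members tested, 24 were higher and 17 lower in adults, or 67.2% called, against 45.3% of all genes (22.7% higher and 22.6% lower), with a median log2 fold change of 0.24 against -0.00 over all genes. Both EPHX genes were higher, the CYP1 family split into 2 higher and 4 lower of 7, and 5 of 8 GST genes were lower with none higher. The call of ephx1.L (0.39) ended without adult library 2 (0.36) and without control library 1 (0.38) or 3 (0.31). The summed TPM of all 65 genes was 1408 ± 104 in adult noses and 911 ± 77.3 in control noses (SD, n = 3 each).

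The largest difference was that of cyp2w1.L, an orphan P450 in mammals, which had 265, 335 and 202 CPM in adult noses and 2.55, 2.84 and 1.69 CPM in control noses (6.79 ± 0.37, adjusted p = 4.05e-10). With 195 ± 46.7 TPM it became the most abundant of the 65 genes in adult noses, just ahead of cyp2a6.L at 192 ± 45.8 TPM. cyp2a6.L had 195, 216 and 278 CPM in adult noses and 60.7, 79.0 and 67 CPM in control noses (1.69 ± 0.24, adjusted p = 1.54e-05). Neither gene had an adult library within the larval range. cyp1d1.L, a CYP1 gene that humans keep only as a pseudogene, had 13.9, 16.9 and 9.41 CPM in adult noses and 0.943, 1.28 and 1.09 CPM in control noses (3.55 ± 0.27, adjusted p = 3.89e-09). The cholesterol sulfotransferase gene sult2b1.L had 84.1, 104 and 72.7 CPM in adult noses and 16.5, 16.3 and 19.7 CPM in control noses (2.26 ± 0.28, adjusted p = 5.14e-06). fmo1.L was called higher too, at 2.14, 1.57 and 1.46 CPM in adult noses and 0.276, 0.236 and 0.195 CPM in control noses (2.83 ± 0.42).

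Among the genes lower in adults were cyp1a1, the classical target of the aryl hydrocarbon receptor, and gstp1. cyp1a1.L had 0.590, 0.267 and 0.745 CPM in adult noses and 3.04, 4.90 and 5.39 CPM in control noses (-3.09 ± 0.30, adjusted p = 1.85e-07). cyp1a1.S had 0.0885, 0.0533 and 0.140 CPM in adult noses and 0.874, 1.45 and 2.51 CPM in control noses (-4.10 ± 0.54). gstp1.L had 27.5, 26.6 and 52.1 CPM in adult noses and 218, 136 and 199 CPM in control noses (-2.44 ± 0.35, adjusted p = 2.62e-05). In each case all adult libraries lay below all larval ones. The vitamin D 25-hydroxylase gene cyp2r1.L had 2.95, 2.59 and 4.79 CPM in adult noses and 15.6, 15.0 and 18.1 CPM in control noses (-2.28 ± 0.20, adjusted p = 2.84e-08). aldh1a2, lower in the cavity than in the VNO, was higher in adults for both copies, by 2.06 ± 0.19 for aldh1a2.S and 1.33 ± 0.16 for aldh1a2.L. Sustentacular and gland markers summed to 1082 to 1239 CPM in adult noses and 1612 to 1814 CPM in control noses, with 4 of 15 higher and 4 lower. Basal and other epithelial markers summed to 3120 to 4076 CPM in adult noses and 6475 to 7484 CPM in control noses. Their part in the stage differences was not tested.

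**Figure D2:**
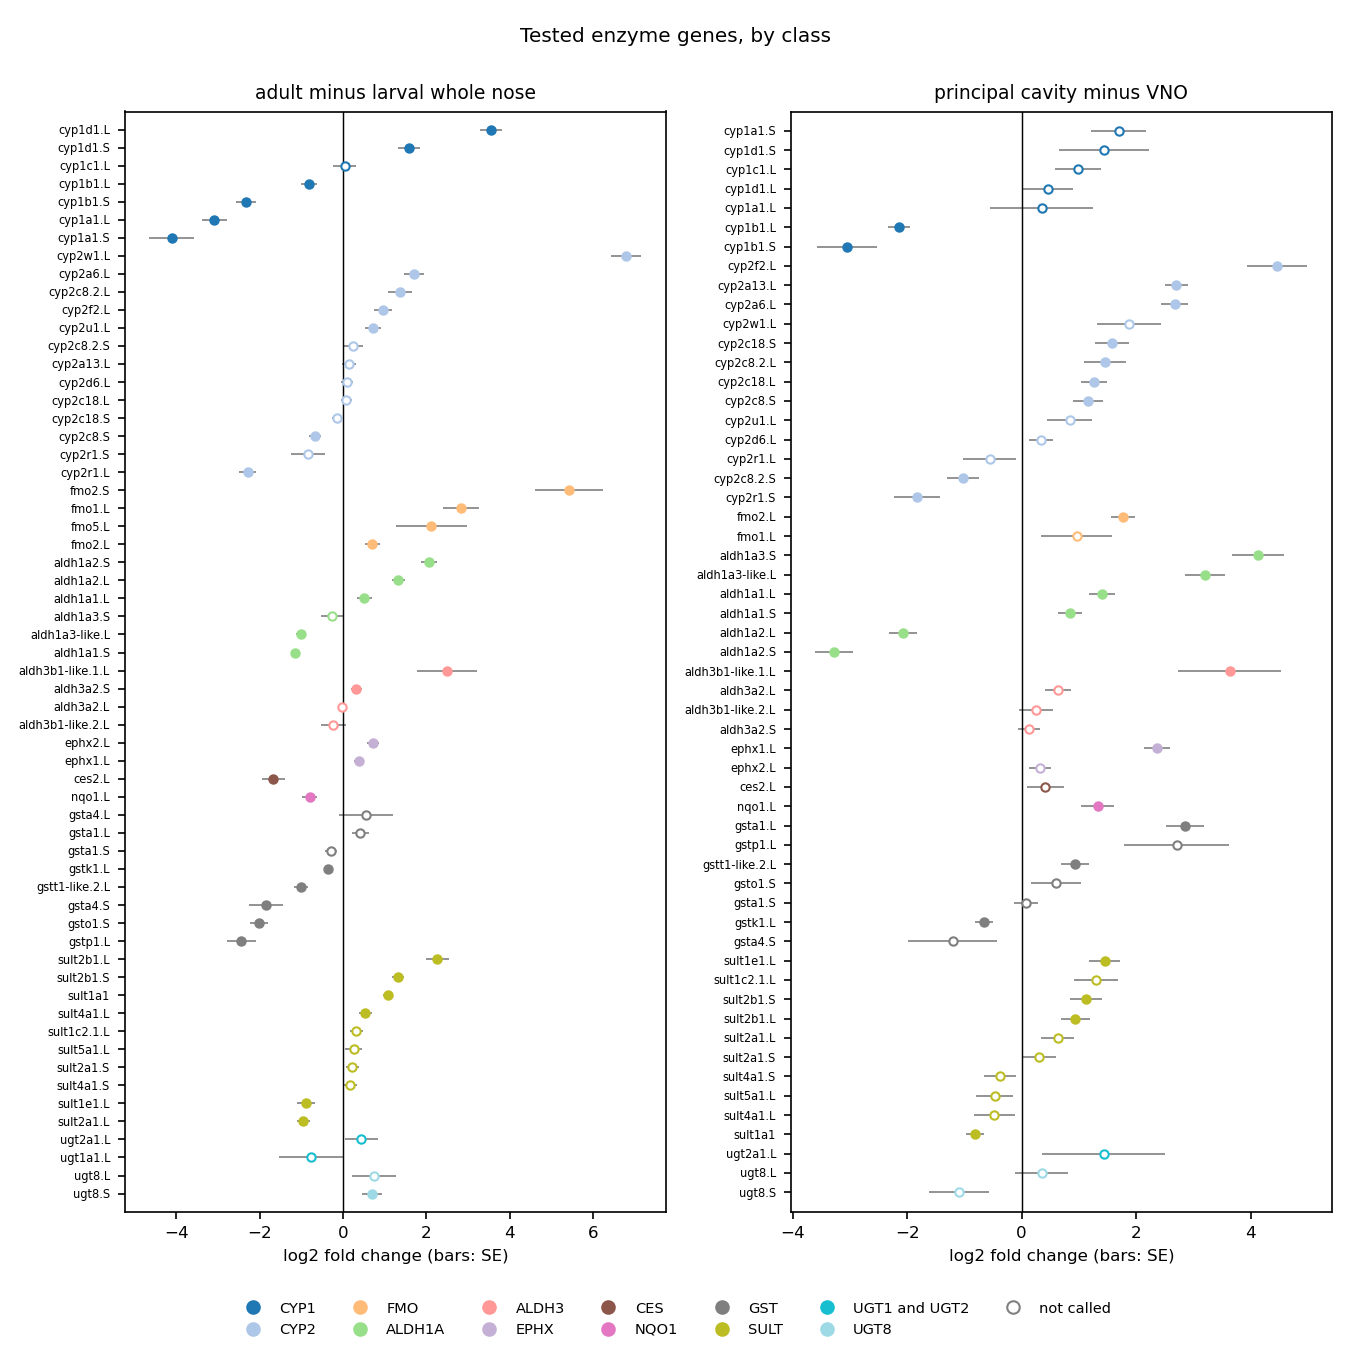
Log2 fold changes of the members tested, less 1 that is not shown, by class, in adult minus control larval noses (left) and principal cavity minus VNO (right), with bars of ± 1 SE and open points for genes not called. cyp2w1.L stands at 6.79 in the comparison of stages, and cyp2f2.L at 4.46 and aldh1a2.S at -3.28 mark both ends of the comparison of the epithelia.

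Noses exposed to the higher dose of amino acids had far higher levels of CYP1 transcripts, and lower levels of several CYP2 and most ALDH1A transcripts, than control noses. Of 61 members tested, 16 were higher and 25 lower in noses of the dose 1000 than in control noses, or 67.2% called, against 49.5% of all genes (26.8% higher and 22.7% lower), and the median log2 fold change was -0.14 against 0.02 over all genes. The CYP1 family stood apart from that direction, with 6 of 7 genes higher and none lower and a median of 3.09. At the dose 200, 14 members were higher and 10 lower than in control noses, 39.3% of those tested against 35.4% of all genes (17.8% higher and 17.7% lower), and in the CYP1 family 5 were higher and 1 lower. Between the doses, which share no library, 10 members were higher and 22 lower at 1000 than at 200, 52.5% against 26.9% of all genes (16.4% higher and 10.6% lower), and 5 CYP1 genes were higher and 1 lower. Both contrasts with untreated larvae used the same 3 control noses.

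cyp1a1.L had 3.04, 4.90 and 5.39 CPM in control noses, 11.2, 14.3 and 12.7 CPM at the dose 200 and 1108, 757 and 727 CPM at the dose 1000. The log2 fold change against control noses was 7.71 ± 0.33 at 1000 (adjusted p = 1.56e-11) and 1.5 ± 0.26 at 200 (adjusted p = 1.71e-04), the second of which was no longer called in a model of all 39 libraries. cyp1a1.S had 0.874, 1.45 and 2.51 CPM in control noses, 4.42, 6.71 and 6.20 CPM at 200 and 833, 552 and 460 CPM at 1000, with 8.65 ± 0.46 at 1000 (adjusted p = 5.78e-10) and 1.79 ± 0.36 at 200. The 3 groups did not overlap for either copy, and between the doses cyp1a1.L differed by 6.20 ± 0.30 (adjusted p = 2.88e-10) and cyp1a1.S by 6.86 ± 0.42 (adjusted p = 1.05e-08). In TPM the CYP1 class summed to 22.9 ± 5.11 in control noses, 30.3 ± 2.88 at 200 and 1012 ± 276 at 1000 (SD, n = 3 each). At the dose 1000 cyp1a1.L with 493 ± 125 TPM and cyp1a1.S with 424 ± 139 TPM were surpassed among the 65 genes only by gstp1.L with 557 ± 109 TPM.

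The other CYP1 genes differed in their pattern over the doses. cyp1b1.L had 19.7, 21.8 and 22.6 CPM in control noses, 31.3, 32.9 and 33.6 CPM at 200 and 177, 132 and 84.3 CPM at 1000 (2.72 ± 0.20 at 1000, adjusted p = 3.27e-09). cyp1b1.S had 5.15, 5.68 and 8.70 CPM in control noses, 6.61, 5.95 and 6.66 CPM at 200 and 71.1, 52.2 and 35.8 CPM at 1000 (3.13 ± 0.23 at 1000, adjusted p = 3.07e-09), so that its libraries at 200 lay within the range of the controls. cyp1c1.L had 2.21, 2.85 and 3.39 CPM in control noses, 0.739, 0.517 and 1.25 CPM at 200 and 20.3, 19.1 and 27.3 CPM at 1000. Its call was therefore lower at 200 (-1.79 ± 0.30, adjusted p = 9.40e-05) and higher at 1000 (3.09 ± 0.29, adjusted p = 4.12e-08). cyp1d1.L was higher at 200 than in control noses by 1.59 ± 0.26 (adjusted p = 8.97e-05), and lower at 1000 than at 200 by a log2 fold change of -0.97 ± 0.25 (adjusted p = 0.00677). It was not below control noses at 1000, with means of 1.40 TPM in control noses, 3.68 TPM at 200 and 1.67 TPM at 1000.

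**Figure D3:**
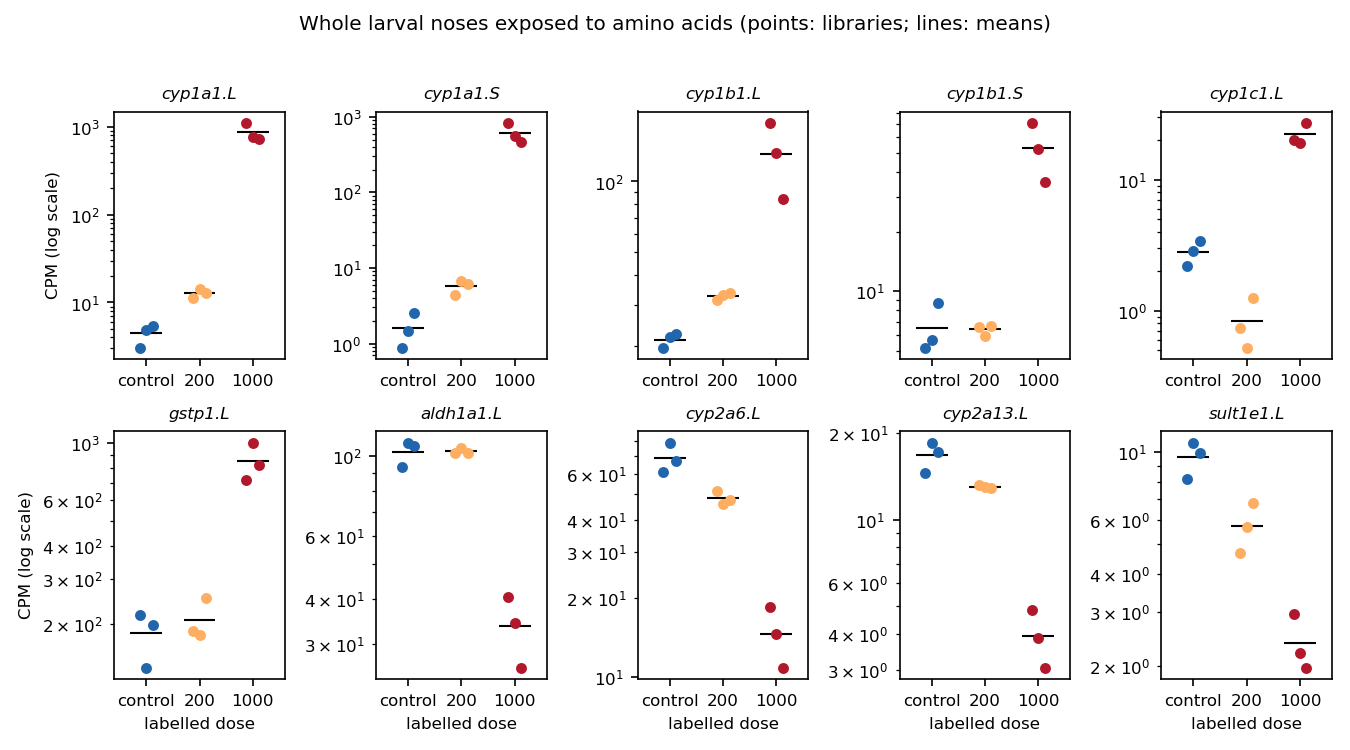
CPM of single libraries (log axis) in control noses and at the labelled amino acid doses 200 and 1000, with lines at the means, for 10 members. Both copies of cyp1a1 climb in steps that do not overlap, while cyp1c1.L lies below the control noses at 200 and above them at 1000.

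gstp1.L was among the members that differed between the doses, with 218, 136 and 199 CPM in control noses, 188, 182 and 253 CPM at 200 and 722, 1001 and 820 CPM at 1000 (2.30 ± 0.35 at 1000 against control noses, adjusted p = 3.39e-05, and 2.14 ± 0.35 against 200, adjusted p = 1.83e-04). Its libraries at 1000 lay above all others, and those at 200 overlapped the control noses. Other GST genes and nqo1.L did not show a rise of that size. In TPM, gsta1.S averaged 59.7 in control noses and 34.9 at 1000, and gsta1.L 43.1 and 51.1. nqo1.L had 52.6 ± 6.95 TPM in control noses and 57.1 ± 8.59 TPM at 1000, with overlapping ranges. TPM are scaled differently from CPM.

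Of the CYP2 genes, 6 of 13 were lower and 2 higher at 1000 than in control noses, and 5 were not called. At 200 the counts were 1 lower and 3 higher, and between the doses 9 were lower and 1 higher at 1000 than at 200. Of all genes, 22.7% were lower and 26.8% higher at 1000, and 17.7% lower and 17.8% higher at 200. Between the doses 10.6% of all genes were lower and 16.4% higher. cyp2a6.L had 60.7, 79.0 and 67 CPM in control noses, 51.4, 45.8 and 47.6 CPM at 200 and 18.6, 14.5 and 10.8 CPM at 1000 (-2.13 ± 0.24 at 1000 against control noses, adjusted p = 1.03e-06). cyp2a13.L had 14.5, 18.5 and 17.1 CPM in control noses, 13.2, 13.0 and 12.8 CPM at 200 and 4.85, 3.89 and 3.05 CPM at 1000 (-1.99 ± 0.18, adjusted p = 2.33e-08). Every library at 1000 lay below every other library of these groups. cyp2f2.L had 5.93, 8.00 and 8.19 CPM in control noses, 11.2, 9.61 and 9.24 CPM at 200 and 3.19, 2.64 and 1.49 CPM at 1000 (-1.93 ± 0.23 at 1000 against 200, adjusted p = 3.49e-06). All 3 of these genes were also called higher in the principal cavity than in the VNO, as were 20 of 57 members (35.1%, against 8.66% of all genes). A link between these contrasts was not tested. ALDH1A genes were called lower for 5 of 6 at 1000 and 3 of 6 at 200, with aldh1a1.L at 93.0, 109 and 107 CPM in control noses, 102, 106 and 102 CPM at 200 and 40.6, 34.5 and 25.8 CPM at 1000 (-1.51 ± 0.19 at 1000, adjusted p = 1.79e-06). The carboxylesterase gene ces2.L and sult1e1.L were also lower at 1000 than in control noses (-1.97 ± 0.28 and -1.91 ± 0.22).

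The amino acid noses differed from the control noses in tissue markers as well. Fibroblast and meningeal markers summed to 12211 to 17366 CPM in control noses, 1068 to 1320 CPM at 200 and 427 to 546 CPM at 1000. Muscle markers summed to 55.5 to 1490 CPM in control noses, 15.2 to 20.7 CPM at 200 and 14.2 to 16.2 CPM at 1000, and red cell markers summed to 1174 to 2590 CPM in control noses, 186 to 411 CPM at 200 and 102 to 209 CPM at 1000. Sustentacular and gland markers summed to 1612 to 1814 CPM in control noses, 1457 to 1582 CPM at 200 and 1231 to 1323 CPM at 1000. Receptor neuron markers summed to 940 to 1142 CPM in control noses, 1096 to 1169 CPM at 200 and 738 to 871 CPM at 1000. The part of these shifts in the enzyme results was not tested. Liver markers summed to 2.06 to 3.14 CPM at 1000 and 3.61 to 5.86 CPM in control noses, and their part was not tested either.

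Genes that work with these enzymes were drawn from lists of sensors, cofactor suppliers, other enzymes and transporters. Values of these lists are given for single copies. The other listed copies of ahr, nr1i3, adh1b, comt.2, por, txnrd1 and abcc1 are not given here. At 1000, 15 of 23 genes for electron donors and cofactor supply were higher and 3 lower than in control noses, and 12 of 19 sensor and transcription factor genes were higher and 3 lower, while of 31 other biotransformation enzymes 15 were lower and 6 higher. The lists' shares of calls at 1000 were 78.3%, 78.9% and 67.7%, against 49.5% of all genes. At 200 the same lists gave 2 higher and 5 lower, 4 higher and 2 lower, and 3 higher and 13 lower, or 30.4%, 31.6% and 51.6% called, against 35.4% of all genes, and the first and second of these shares are not above that of all genes. gclm.L, the modifier subunit of the enzyme that limits glutathione synthesis, had 35.9, 27.1 and 34.8 CPM in control noses, 37.4, 38.1 and 39.7 CPM at 200 and 362, 363 and 426 CPM at 1000 (3.66 ± 0.23 at 1000, adjusted p = 5.31e-10). The groups at 1000 and in control noses were far apart for this gene. Among genes looked up after the values were seen, ahrr.L, the repressor of the aryl hydrocarbon receptor, averaged 39.1 ± 2.96 CPM at 1000 and 21.8 ± 6.61 CPM in control noses (0.96 ± 0.13, adjusted p = 6.38e-06), while the receptor gene ahr.L averaged 68.7 ± 1.46 CPM at 1000 and 68.2 ± 8.45 CPM in control noses and was not called.

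After transection, the enzyme genes of the nose moved in several directions over time. At 2 days, 8 of 61 members were higher and 11 lower than in control noses, or 31.1% called, against 20.2% of all genes (9.62% higher and 10.6% lower), and the count was 11 in a model of all 39 libraries and 12 to 19 with single libraries left out. At 1 week, 18 were higher and 11 lower, 47.5% against 39.7% of all genes (18% higher and 21.6% lower). At 7 weeks, 14 were higher and 23 lower, 60.7% against 48.5% of all genes (21.7% higher and 26.8% lower). Between these times, 11 were higher and 26 lower at 7 weeks than at 1 week, 60.7% against 33.5% of all genes (17.1% higher and 16.4% lower). All 3 contrasts with uncut noses used the same control libraries. Receptor neuron markers summed to 940 to 1142 CPM in control noses, 305 to 545 CPM at 2 days, 204 to 228 CPM at 1 week and 436 to 817 CPM at 7 weeks, and the part of this difference in the enzyme values was not tested.

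Of 13 CYP2 genes at 1 week, 7 were higher and 1 lower, against 18% higher and 21.6% lower of all genes. Among those called higher, cyp2c8.S, an epoxygenase in mammals, led in level. It had 38.4, 58.9 and 46.7 CPM in control noses, 98.4, 84.9 and 92.9 CPM at 2 days, 137, 125 and 157 CPM at 1 week and 88.3, 82.3 and 59.7 CPM at 7 weeks (0.90 ± 0.15, 1.5 ± 0.16 and 0.73 ± 0.15 over these times). All cut libraries lay above all control libraries. cyp1d1.L had 0.943, 1.28 and 1.09 CPM in control noses, 2.33, 2.90 and 2.58 CPM at 2 days, 6.01, 6.21 and 6.90 CPM at 1 week and 1.61, 3.33 and 1.37 CPM at 7 weeks, again above the controls in every library.

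cyp1a1 was lower in the noses of the first week and higher in those of 7 weeks. cyp1a1.L had 3.04, 4.90 and 5.39 CPM in control noses, 0.946, 0.923 and 0.859 CPM at 2 days, 1.27, 1.38 and 1.19 CPM at 1 week and 8.51, 13.7 and 6.54 CPM at 7 weeks. The log2 fold changes were -2.34 ± 0.29 (adjusted p = 3.12e-05), -1.85 ± 0.28 (adjusted p = 4.41e-05) and 1.17 ± 0.26 (adjusted p = 0.00108), the last of which was not called in a model of all 39 libraries. No cut library overlapped the controls, below them at 2 days and 1 week and above them at 7 weeks. cyp1a1.S was called higher at 7 weeks by 1.84 ± 0.37, with 9.01, 5.44 and 2.73 CPM at 7 weeks and 0.874, 1.45 and 2.51 CPM in control noses, and its lower call at 2 days (-1.29 ± 0.41) ended without control library 3, at -0.82, and without any of the 2-day libraries, at -1.38 to -1.17.

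At 7 weeks all calls of GST and ALDH1A genes were lower, 5 of 8 and 5 of 6, against 26.8% lower of all genes. Without nose library 1 of 7 weeks the calls of gstp1.L (-0.61, against -0.90 with it) and aldh1a1.S (-0.16, against -0.35 with it) ended. aldh1a1.L had 46.1, 74.1 and 32.9 CPM at 7 weeks and 93.0, 109 and 107 CPM in control noses (-0.96 ± 0.19, adjusted p = 2.78e-04), and aldh1a3.S was lower by a log2 fold change of -1.95 ± 0.29 (adjusted p = 1.73e-05). ces2.L had 6.0, 7.84 and 2.26 CPM at 7 weeks and 20.7, 15.0 and 19.1 CPM in control noses (-1.70 ± 0.28, adjusted p = 6.91e-05). Neither aldh1a1.L nor ces2.L had a library at 7 weeks within the control range. The summed TPM of the 65 genes was 494 ± 76.2 at 7 weeks and 911 ± 77.3 in control noses. TPM and CPM are scaled differently, which matters between these groups. gsta1.S had 40.4 TPM at 7 weeks and 59.7 TPM in control noses, but 143 and 138 CPM, and was not called. The median log2 fold change of the members was -0.25, against -0.08 over all genes. Noses at 7 weeks also had fewer counts of fibroblast and meningeal markers (694 to 1180 CPM, against 12211 to 17366 CPM in control noses) and of red cell markers (106 to 213 CPM, against 1174 to 2590 CPM), whose part was not tested. sult4a1 was lower in cut noses, with 34.0, 51.5 and 42.2 CPM of sult4a1.L in control noses, 37.8, 28.1 and 21.6 CPM at 2 days, 14.5, 14.7 and 14.1 CPM at 1 week and 24.3, 30.4 and 21.8 CPM at 7 weeks (-1.60 ± 0.16 at 1 week, adjusted p = 3.18e-07). Its call at 2 days (-0.59), where the libraries overlapped, ended without 2-day library 2 (-0.56) or 3 (-0.42) and without control library 2 (-0.43).

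**Figure D4:**
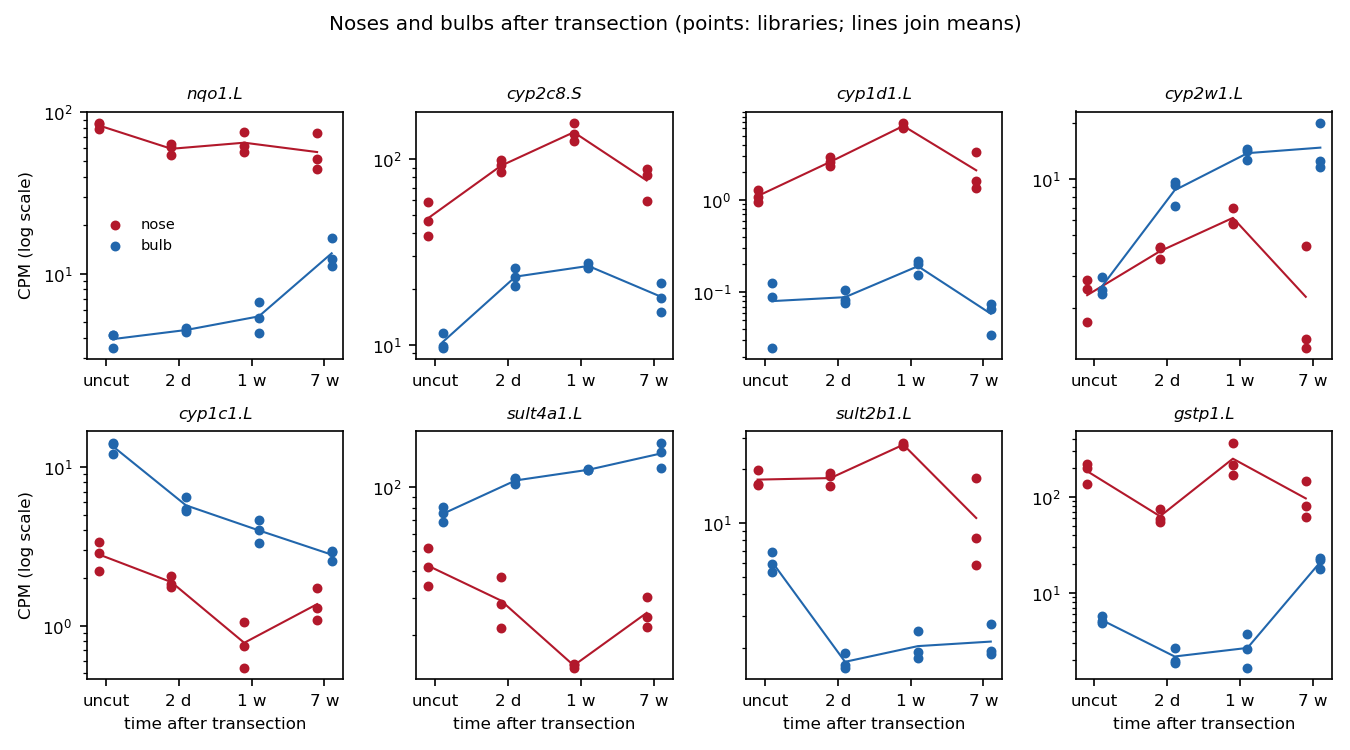
CPM of single libraries (log axis) in uncut noses and bulbs and 2 days, 1 week and 7 weeks after transection, with lines joining the means, for 8 members. sult4a1.L is lower in cut noses and higher in cut bulbs than in uncut ones, and cyp1c1.L of the bulb is lower at each later time.

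In the bulb, the count of members called was close to that of genes in general by 7 weeks. At 2 days, 14 of 59 members were higher and 19 lower than in control bulbs, or 55.9% called, against 46.2% of all genes (21.6% higher and 24.7% lower). At 1 week, 20 were higher and 17 lower, 62.7% against 56% of all genes (27% higher and 29.1% lower). At 7 weeks 23 were higher and 16 lower, 66.1% against 65.9% of all genes (32.1% higher and 33.7% lower). The median log2 fold changes of the members were -0.10, 0.22 and 0.29 over these times, against -0.02, 0.01 and -0.00 over all genes. All 3 contrasts used the same control bulbs.

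cyp2w1.L, the gene that set adult noses apart, was higher in cut bulbs at every time, with 2.51, 2.40 and 2.95 CPM in control bulbs, 7.13, 9.58 and 9.31 CPM at 2 days, 14.2, 12.6 and 14.4 CPM at 1 week and 20.1, 12.5 and 11.7 CPM at 7 weeks (1.70 ± 0.20, 2.36 ± 0.20 and 2.45 ± 0.20). cyp2c8.S had 9.83, 9.60 and 11.5 CPM in control bulbs, 25.9, 23.1 and 20.7 CPM at 2 days, 26.3, 27.5 and 25.9 CPM at 1 week and 15.0, 21.6 and 17.8 CPM at 7 weeks, and was called higher at each time. Every cut library was above every control library for both genes. aldh3b1-like.1.L, little detected in control bulbs, had 0.422, 0.181 and 0.280 CPM there, 1.51, 1.90 and 2.29 CPM at 1 week and 3.26, 3.75 and 4.85 CPM at 7 weeks (3.74 ± 0.31 at 7 weeks, adjusted p = 3.64e-07).

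cyp1c1.L, the most abundant CYP1 gene of the bulb, declined with time. It had 14.2, 14.0 and 12.1 CPM in control bulbs, 6.44, 5.30 and 5.45 CPM at 2 days, 4.60, 4.03 and 3.31 CPM at 1 week and 2.57, 2.90 and 2.94 CPM at 7 weeks (-1.26 ± 0.13, -1.79 ± 0.13 and -2.29 ± 0.14, adjusted p = 1.44e-05, 4.13e-07 and 2.73e-08). The 4 groups did not overlap. cyp1a1.L had raw counts of 93, 134 and 104 in control bulbs, 0, 4 and 1 at 2 days and 6, 4 and 4 at 1 week, and it was called lower at both times. At 7 weeks it had 0.190, 1.72 and 0.050 CPM, against 1.16, 1.21 and 1.32 CPM in control bulbs, and was not called. sult2b1.L had 1.54, 1.60 and 1.86 CPM at 2 days and 5.28, 5.91 and 6.91 CPM in control bulbs (-1.88 ± 0.19, adjusted p = 1.22e-05) and stayed called lower at 1 week and 7 weeks.

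gstp1.L reversed over time in the bulb, with 5.07, 5.72 and 4.85 CPM in control bulbs, 2.69, 1.97 and 1.87 CPM at 2 days and 23.0, 17.7 and 22.1 CPM at 7 weeks. It was called lower at 2 days (-1.29 ± 0.24, adjusted p = 8.47e-04, not called in a model of all 39 libraries) and higher at 7 weeks (1.97 ± 0.23, adjusted p = 7.72e-06). nqo1.L was higher at 7 weeks as well, with 16.7, 11.1 and 12.3 CPM at 7 weeks and 4.20, 3.47 and 4.15 CPM in control bulbs (1.73 ± 0.18, adjusted p = 3.06e-06). For both genes the 7-week bulbs did not overlap the controls. At 7 weeks red cell markers of the bulb summed to 27.8 to 75.3 CPM, against 1037 to 1250 CPM in control bulbs, leukocyte markers to 23.1 to 43.7 CPM, against 16.0 to 18.6 CPM, and myelin markers to 470 to 665 CPM, against 908 to 1525 CPM. The part of these markers was not tested. ugt8, the myelin lipid enzyme, was lower at 7 weeks for both copies (ugt8.S -1.17 ± 0.21 and ugt8.L -1.28 ± 0.33).

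The responses of nose and bulb were also compared directly, as the log2 fold change after transection in the nose minus that in the bulb. At 2 days 12 of 63 members differed, 5 with a positive and 7 with a negative difference, or 19% called, against 16.1% of all genes (5.52% positive and 10.5% negative). At 1 week 14 were positive and 9 negative, 36.5% against 25.4% (10.9% positive and 14.5% negative), in a table whose median difference was -0.10. At 7 weeks 10 were positive and 22 negative, 50.8% against 35.7% (16.4% positive and 19.3% negative). sult4a1.L had a difference of -1.20 at 2 days and -2.32 at 1 week: it was called lower in cut noses while it stood at 103, 109 and 110 CPM at 2 days and 120, 122 and 120 CPM at 1 week in cut bulbs, against 75.4, 68.2 and 80.3 CPM in control bulbs. sult2b1.L had a difference of 1.75 at 2 days and 2.13 at 1 week, gstp1.L of -2.89 and nqo1.L of -2.25 at 7 weeks.

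Genes of the same lists outside the 65 were counted in the other contrasts as well. Of 89 such genes tested, 58 were higher and 9 lower in control noses than in control bulbs (65.2% and 10.1%, against 39.7% and 35.1% of all genes), with adh1b.S, an alcohol dehydrogenase, at 55.2 ± 10.8 CPM in control noses and 0.332 ± 0.0232 CPM in control bulbs (7.44 ± 0.21). In the principal cavity 12 of 86 were higher and 7 lower than in the VNO (14% and 8.14%, against 8.66% and 6.53% of all genes), and adh1b.S led there too, with 186 ± 96.1 CPM in the principal cavity and 18.3 ± 9.92 CPM in the VNO (3.28 ± 0.52, adjusted p = 0.00726). Adult noses had 14 higher and 34 lower of 89 (15.7% and 38.2%, against 22.7% and 22.6% of all genes). The catechol methyltransferase gene comt.2.S was lower in adults, at 0.433 ± 0.0821 CPM in adult noses and 3.85 ± 0.690 CPM in control noses (-3.19 ± 0.38). por.L, which encodes the reductase that feeds electrons to microsomal P450s and was looked up after the values were seen, averaged 356 ± 49.98 CPM in adult noses and 135 ± 6.30 CPM in control noses (1.35 ± 0.10, adjusted p = 1.81e-09).

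Of 84 genes of these lists tested in bulbs, 12 were higher and 29 lower at 2 days (14.3% and 34.5%, against 21.6% and 24.7% of all genes). At 1 week 14 were higher and 36 lower (16.7% and 42.9%, against 27% and 29.1%). At 7 weeks 25 were higher and 24 lower (29.8% and 28.6%, against 32.1% and 33.7%). In cut bulbs nr1i3.L, the constitutive androstane receptor that in mammals drives CYP2 genes, was higher at every time, with 0.323, 0.289 and 0.242 CPM in control bulbs, 2.29, 1.87 and 1.39 CPM at 2 days, 1.47, 2.08 and 2.31 CPM at 1 week and 1.31, 3.44 and 2.99 CPM at 7 weeks (2.66 ± 0.36, 2.73 ± 0.36 and 3.15 ± 0.36). The efflux pump gene abcc1.S was lower in cut bulbs at each time, with 0.103, 0.143 and 0.267 CPM at 7 weeks and 3.84, 4.29 and 4.41 CPM in control bulbs (-4.54 ± 0.32, adjusted p = 1.09e-07). Its list of efflux and uptake genes was mixed at 7 weeks, with 6 of 16 higher and 7 lower (37.5% and 43.8%). The list summed to 465 to 622 CPM at 7 weeks and 390 to 433 CPM in control bulbs.

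How often both homeologs of a pair were called alike varied between contrasts. In control noses against control bulbs, both copies were called in the same direction for 11 of 15 pairs tested, in opposite directions for 2 and only one was called for 2. In adult against control noses 6 of 16 pairs had both copies called alike, 1 had opposite calls, 7 had one copy called and 2 neither. At the amino acid dose 1000 the counts were 5 alike, 1 opposite, 9 with one copy and 1 with neither. Of all genes, 74.8%, 45.3% and 49.5% were called in these contrasts. The same counts over all homeolog pairs are not given here, so the agreement cannot be read as particular to these enzymes. The opposite pair of adult noses was aldh1a1. Its .L copy had 131, 166 and 157 CPM in adult noses and 93.0, 109 and 107 CPM in control noses (0.51 ± 0.18, adjusted p = 0.0295), a call that ended without any of 4 libraries (0.45 to 0.53), while its .S copy was lower (-1.14 ± 0.12, adjusted p = 2.18e-07), and the .L share of the pair's TPM was 65.5% in adult noses and 37.6% in control noses. With the copies summed the direction of the pair was that of the .S copy, -0.23. The .L share of cyp1d1 was 78.9% in adult noses and 48.4% in control noses, that of gsta1 41.9% in control noses and 16.8% in control bulbs, and that of aldh3a2 56.4% in control noses and 18.4% in control bulbs. For cyp1a1 both copies rose at the amino acid dose 1000, and the .L share was 53.8% there and 69.8% in control noses.

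**Figure D5:**
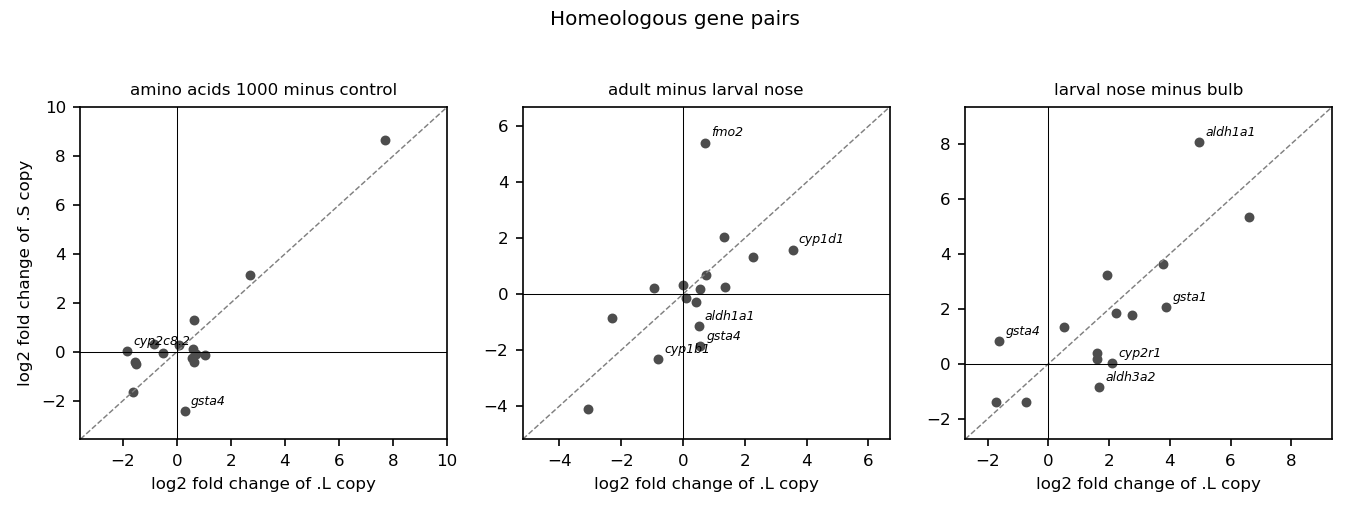
Log2 fold change of the .S copy (vertical axis) against that of the .L copy (horizontal axis) of each homeolog pair tested, at the amino acid dose 1000 minus control noses, in adult minus control noses and in control noses minus control bulbs, with a dashed line where both are equal. cyp1a1 stands at 7.71 for .L and 8.65 for .S at the dose 1000, and aldh1a1 at 0.51 for .L and -1.14 for .S in adults lies below the horizontal line.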

How the data were processed

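Total RNA of 39 libraries in 13 groups was sequenced. Per the submitters' processing notes, reads were handled with bcl2fastq 2.17.1.14, STAR 2.5 and featureCounts of Subread 1.5.0; genome build, annotation and use of strand were not given in the sources used here. The authors deposited raw counts per gene and TPM per gene, and only these were used; a deposited table of counts divided by 1 factor per library was left out. The table's column names matched groups but not single labelled libraries, so libraries are numbered as in the table. Of 37240 rows, 17 repeated ones were dropped. Of the 65 members, 42 matched a RefSeq symbol.

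Raw counts were tested in R 4.3.3 with the quasi-likelihood F test of edgeR 4.0.16 (filterByExpr with a minimum count of 10 and a total of 15, TMM scaling, robust dispersions, limma 3.58.1), with Benjamini-Hochberg adjustment over all genes tested and calls below 0.05. Separate models held the 21 libraries of noses, the 12 of bulbs, the 6 of principal cavity and VNO, and the 24 of noses and bulbs of the transection series. Directions are first group minus second. Alternatives were DESeq2 1.42.0, RLE size factors, no filter, 1 model of all 39 libraries, summed homeologs, leaving out single libraries and, for principal cavity and VNO, a replicate block by column digit. Named genes were up to 5 called members per direction with the largest change, at least 1 CPM and no overlap of libraries, the most abundant members, their homeologs and a fixed set of well-known genes; genes named outside this rule to complete a class were chosen after their values were seen, and 1 gene that meets it is not reported here. Overlap of libraries was not assessed for the differences between nose and bulb responses. The members and gene lists were chosen with earlier results of these data known. On simulated data with known changes, 4-fold changes were recovered for 99% of genes and 2-fold changes for 66% in the comparison of the dose 1000 with control noses, against 67% and 7% in the principal cavity and VNO. False calls made up 2.37% and 5.13% of the calls in these comparisons. They made up 7.22% in control noses against control bulbs, above the threshold of 0.05, and 3.65% in bulbs at 2 days against control bulbs.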

Additional observations from a re-analysis of the deposited data

Results flagged for a closer look

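In a direct test, the change after transection differed between nose and bulb for 12, 23 and 32 members at 2 days, 1 week and 7 weeks. These are 19%, 36.5% and 50.8% of those tested, against 16.1%, 25.4% and 35.7% of all genes. Listed here are 26 of these values, up to 5 per direction and time. They were taken by the naming rule given above, except that overlap of libraries was not assessed for these differences. Not every group of a listed gene reached 1 CPM. Each value is the log2 fold change in the nose minus that in the bulb, a positive value means a higher change in the nose, and all come from the quasi-likelihood F test of edgeR with adjustment over all genes. Beside them the whole table had a median difference of -0.09 at 2 days, -0.10 at 1 week and -0.08 at 7 weeks, which was not subtracted.

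At 2 days the listed values above 0 were those of sult2b1.L (1.75), aldh1a2.S (1.57) and sult1a1 (1.16). Those below 0 were cyp2c8.2.S (-3.02), sult4a1.L (-1.20), sult2a1.L (-1.02), gstt1-like.2.L (-0.97) and aldh3a2.S (-0.90).

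At 1 week the listed values above 0 were those of sult2b1.L (2.13), aldh1a1.L (1.49), cyp2f2.L (1.48) and sult2b1.S (1.40). Those below 0 were cyp2c8.2.S (-3.74), sult4a1.L (-2.32), sult4a1.S (-1.99), aldh1a3.S (-1.24) and aldh3a2.S (-1.14).

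At 7 weeks the listed values above 0 were those of cyp1b1.L (1.42), cyp1c1.L (1.31), cyp2r1.L (1.19) and sult2b1.S (1.10). Those below 0 were aldh1a1.S (-2.96), gstp1.L (-2.89), cyp2w1.L (-2.52), aldh1a3.S (-2.50) and nqo1.L (-2.25).

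Levels in the bulb were low for some of the listed genes. cyp2c8.2.S averaged 0.106 CPM in control bulbs, 0.231 CPM at 2 days, where it was not called in the bulb, and 0.337 CPM at 1 week. cyp2f2.L averaged 0.261 CPM in control bulbs and 0.184 CPM at 1 week, and was not called in the bulb. An entry not listed above, sult1a1.L, was called opposite to sult1a1 at 2 days (-2.78 ± 0.88). It averaged 0.270 CPM in control bulbs and 0.525 CPM in bulbs at 2 days. The bulb side of these differences therefore rests on few reads. Some of the listed values rest on single libraries. cyp2f2.L at 1 week was not called without control bulb library 2 (1.22) or without bulb library 1 of 1 week (1.35), nor was aldh1a3.S without any of 5 libraries, where it ranged between -1.24 and -1.10. sult2a1.L at 2 days was not called without control bulb library 3 (-0.85). Without control bulb library 2, cyp2c8.2.S stood at -3.79 at 2 days and -4.52 at 1 week, without bulb library 2 of 7 weeks aldh1a1.S stood at -2.33, and without nose library 1 of 7 weeks cyp2w1.L stood at -3.28.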

How the results depend on the processing

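The counts of members called stayed within 1.5 times under DESeq2, RLE size factors, no low-count filter, summed homeologs and 1 model of all 39 libraries, with 1 exception: at 2 days in the nose 11 members were called in the model of all 39 libraries, against 19. With single libraries left out, counts ranged between 12 and 19 at 2 days in the nose and between 16 and 27 in the principal cavity against the VNO (28 with all libraries), and stayed within 1.5 times in the other comparisons. Of 3703 recomputed changes of 311 called gene and comparison pairs, 3428 kept their direction and call, 267 kept their direction only, and 8 changed sign, all 8 on summing homeologs, which mixes the copies by construction: aldh1a1.L at 7 weeks in the bulb (0.080) and in adults (-0.23), aldh1a2.S at 1 week in the bulb (0.013), aldh3a2.S at 7 weeks in the nose (0.12), cyp2c8.2.S at 7 against 1 week in the nose (-0.63), gsta1.L in the bulb at 1 week (0.33) and 2 days (0.18), and gsta1.S at the dose 1000 (0.16). Of the 267, leaving out 1 library accounted for 204. The numbers in the titles are unique to each library, but those of the principal cavity and the VNO alternate, so a replicate block by the digit of the deposited columns, which cannot be tied to titles, was fitted for these 2 groups after the data had been seen. It called 27 members, against 28 without the block. Same-digit libraries correlated in their deviations from the group means at -0.08, 0.11 and 0.24 over genes, and only library 3 of the cavity correlated best with its own digit. No other paired analysis was possible because no number is shared between groups in the labels. Depth limits members below about 1 CPM, whose libraries hold few reads, and 3 libraries a group limit all others.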

Other observations

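Of the genes that work with these enzymes, 23 for electron donors and cofactor supply were counted after transection. In cut noses 9 were lower and 1 higher at 2 days, 8 lower and 2 higher at 1 week and 13 lower and 2 higher at 7 weeks. The shares lower were 39.1%, 34.8% and 56.5%, against 10.6%, 21.6% and 26.8% of all genes. In cut bulbs 13 were lower and 2 higher at 2 days, 16 lower and 2 higher at 1 week and 9 lower and 5 higher at 7 weeks. The shares lower were 56.5%, 69.6% and 39.1%, against 24.7%, 29.1% and 33.7% of all genes, so that the last lies near the level of all genes. txnrd1.S, a thioredoxin reductase, had 0.362, 0.817 and 0.632 CPM in noses at 1 week and 2.83, 4.03 and 3.79 CPM in control noses (-2.59 ± 0.51, adjusted p = 4.78e-04), with no overlap. The P450 reductase gene por.L, looked up after the values were seen, had 28.5, 23.4 and 26.3 CPM in bulbs at 7 weeks and 77.0, 83.3 and 65.5 CPM in control bulbs (-1.56 ± 0.10, adjusted p = 5.29e-08).

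Besides cyp2c8.S, the members cyp2c18.L and sult1c2.1.L were called higher after transection at every time in both organs, each organ against its own control libraries. Of all genes, 9.62%, 18% and 21.7% were called higher in noses at 2 days, 1 week and 7 weeks. In bulbs these shares were 21.6%, 27% and 32.1%. The share of all genes called higher at every time in both organs was not counted. The pattern therefore cannot be read as particular to these members. Higher calls in the nose were not confined to cut animals. Noses at the amino acid dose 200 were also called higher than the same control noses for cyp2c8.S (0.84 ± 0.15) and cyp2c18.L (0.69 ± 0.13). cyp2c18.L had 4.31, 4.88 and 4.56 CPM in control bulbs, 8.30, 8.68 and 7.19 CPM at 2 days, 12.3, 12.2 and 11.5 CPM at 1 week and 19.5, 17.0 and 26.3 CPM at 7 weeks, and its log2 fold changes were 0.79 ± 0.15, 1.35 ± 0.15 and 2.16 ± 0.15 in bulbs and 0.53 ± 0.13, 1.10 ± 0.13 and 0.80 ± 0.13 in noses. The sulfotransferase gene sult1c2.1.L had 1.10 ± 0.16, 1.28 ± 0.16 and 1.47 ± 0.16 in bulbs and 0.67 ± 0.16, 1.10 ± 0.16 and 1.22 ± 0.16 in noses. Leukocyte markers summed to 45.6 to 56.7 CPM in bulbs at 2 days and 16.0 to 18.6 CPM in control bulbs, with 9 of 9 higher, and to 140 to 167 CPM in noses at 2 days and 80.2 to 112 CPM in control noses, and their part in these values was not tested.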
